A study of Homo sapiens with 59 samples.

Results

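The comparison set HepG2 cells given wortmannin at 10 uM for 24 h against HepG2 cells given vehicle for the same time. HepG2 is an established human hepatocellular carcinoma line, here a single line maintained in medium with fetal bovine serum. The wortmannin group had 3 libraries and the vehicle group had 3, chosen by their labelled columns, which makes 6 of the 59 RNA-seq libraries of the series. The sample labels give the vehicle as 0.1% DMSO, whereas the series text gives 2% DMSO, and the labels do not state how much DMSO the wortmannin wells held. The series text names wortmannin as the positive control, and the other 18 groups were 6 herbal water extracts at 3 doses each, with 2 or 3 libraries a group. All libraries carry the same batch letter and the 6 compared here share the same title number. The labels do not say whether the replicates were grown separately. The p-values therefore rest on the spread among libraries, which may be technical. Of 60675 genes in the deposited table, 16641 passed the filter on low counts and were tested.

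Wortmannin is a fungal metabolite that binds covalently to phosphoinositide 3-kinases (PI3K), and at micromolar concentrations it also reaches related kinases such as mTOR, DNA-PK and ATM. In hepatocytes insulin acts through its receptor and PI3K to make the lipid PIP3, which recruits the kinase AKT. Active AKT keeps FOXO transcription factors out of the nucleus and so represses genes of glucose output, and through mTORC1 it promotes ribosome production, lipid synthesis and growth. Wortmannin is unstable in culture medium, and a single time of 24 h was measured.

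Total counts were 25332384, 23363058 and 28469666 in the wortmannin libraries and 25442868, 25579649 and 24526982 in the vehicle libraries, within the range of 21582603 to 31392069 over all 59. Hepatocyte and HepG2 markers were present, with 13 of 13 tested and a summed level of 52589.8 to 53656 CPM with wortmannin and 46208 to 46947 CPM with vehicle. Of 21 markers of other cell types, 11 passed the filter. Their summed level was 342 to 361 CPM with wortmannin and 325 to 336 CPM with vehicle, most of it from EPCAM and TUBB3. Of these 11, 3 were called higher and 1 lower (27.3% and 9.09%, against 16.2% and 16% over all genes). PDGFRB of mesenchyme measured 14.3, 13.4 and 14.5 CPM with wortmannin, against 8.94, 9.72 and 9.57 CPM with vehicle (adjusted p = 1.73e-07). CD68 of macrophages measured 38.9, 39.2 and 37.1 CPM with wortmannin, against 31.3, 29.4 and 26.8 CPM with vehicle (adjusted p = 1.66e-05). CDH5 of endothelium, higher, and COL1A1 of mesenchyme, lower, stayed below 1 CPM in every library, and the calls were lost for CDH5 (adjusted p = 0.0574 to 0.125 without wortmannin replicate 3 or vehicle replicate 2) and COL1A1 (adjusted p = 0.0771 without wortmannin replicate 2). The part of these markers in the results was not tested. PTPRC, CD3E, HBB, COL1A2, DCN, LUM, KRT5, KRT20, SOX2 and INS did not pass the filter. 3 libraries stood apart from their own groups, all of them in extract groups, namely Zingiberis Rhizoma 500 ug/mL replicate 1, Pinelliae Tuber 100 ug/mL replicate 3 and Zizyphi Fructus 20 ug/mL replicate 1. They entered the estimate of the spread but neither group of the comparison. The first principal component of the 6 libraries held 38.5% of their variance and had the 3 wortmannin libraries at 1 end and the 3 vehicle libraries at the other.

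Wortmannin changed 5362 of 16641 genes, 32.2%, at an adjusted p under 0.05 in edgeR's quasi-likelihood test, with 2701 genes (16.2%) higher and 2661 genes (16%) lower than vehicle. Most changes were small. The median absolute log2 fold change of the called genes was 0.27, and 81.3% of them changed by less than 0.5. The larger changes were mostly increases, with 837 genes higher and 164 lower by 0.5 or more, and 199 higher and 48 lower by 1 or more. Most changes of 1 or more were in scarce genes, with 141 of the 199 and 38 of the 48 at a mean level under 1 CPM. At 10 to 100 CPM there were 17 and 4, and at 100 CPM and above 0 and 0. Under 1 CPM 203 genes were called higher and 51 lower of 3554. Increases led among genes with a mean level of 1 to 10 CPM (counts scaled to library size), with 744 higher and 177 lower of 3661. Decreases led at 100 CPM and above, with 337 higher and 729 lower of 1933. Protein-coding genes made up most of the calls, with 2427 higher and 2580 lower of 13132, while long noncoding genes had 196 higher and 48 lower of 2210. The 3 wortmannin libraries lay all above the 3 vehicle libraries for 4147 genes and all below them for 3932, together 48.5% of the genes tested. Against a minimum fold change of 1.2 in place of no minimum, 936 genes passed, 650 higher and 286 lower. Levels below are in CPM and are not corrected for gene length. In bulk RNA, fewer cells of a kind and less RNA per cell cannot be told apart.

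**Figure D1:**
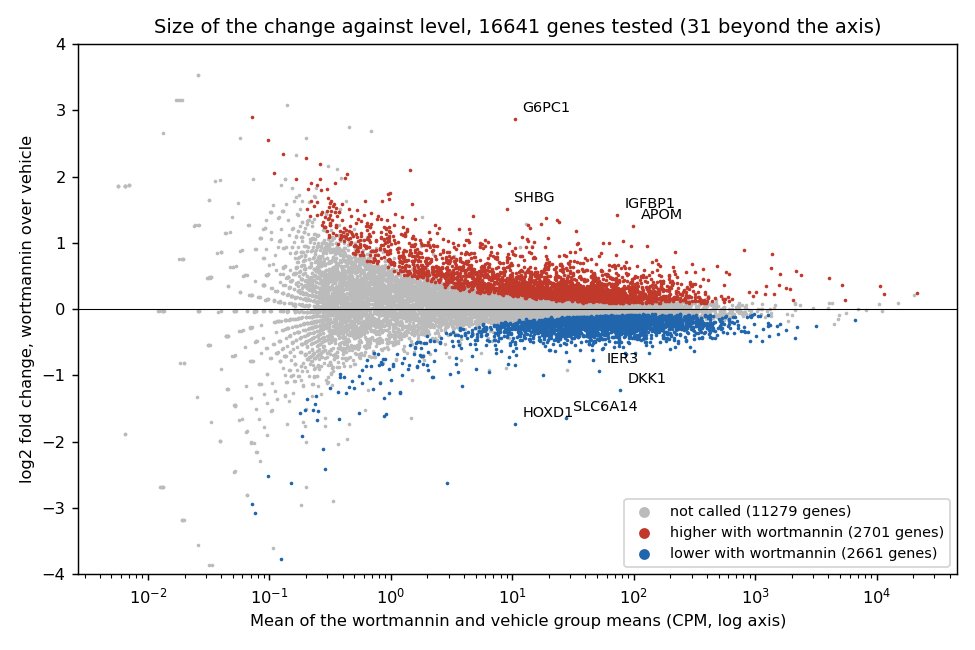
Log2 fold change of wortmannin over vehicle (vertical axis) against the mean of the group means in CPM (horizontal log axis) for 16641 genes, red for 2701 genes higher, blue for 2661 lower and grey for those not called; 31 genes lie beyond the vertical axis. G6PC1 stands far above the other called genes of its level, and HOXD1, SLC6A14 and DKK1 lie lowest of the genes labelled in the plot.

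Among the called genes of PI3K itself the largest change was in PIK3IP1, a regulator of the enzyme. The catalytic subunits PIK3CA, PIK3CB and PIK3CD did not pass the test, with log2 fold changes of 0.03, 0.03 and 0.09. PIK3IP1 (ENSG00000100100, chromosome 22, 31281593 to 31292534), a transmembrane protein that restrains the PI3K catalytic subunit, measured 3.00, 3.26 and 3.49 CPM with wortmannin, against 1.39, 1.10 and 1.56 CPM with vehicle. The groups did not overlap, and PIK3IP1 was higher with wortmannin (log2 fold change 1.27 ± 0.150 SE, adjusted p = 1.84e-09). PIK3AP1, an adaptor that recruits PI3K to receptors, rose by 0.56 on the log2 scale. PIK3R2, a regulatory subunit, rose by 0.32, while the regulatory subunits PIK3R1 and PIK3R3 gave -0.07 and -0.03 and did not pass. Among the class III complex that makes PI3P on endosomes and autophagosomes, the catalytic PIK3C3 rose by 0.24 and its partners PIK3R4, BECN1, ATG14, UVRAG and RUBCN did not pass. Among the phosphatases of the lipids that PI3K makes, INPP5K, MTMR4 and INPPL1 rose by 0.26, 0.19 and 0.18, and MTMR2 and MTM1, which remove the phosphate from PI3P, had log2 fold changes of -0.25 and -0.13. Altogether 7 of the 28 tested genes of this list rose and 2 fell, with a median log2 fold change of 0.02, equal to the median of 0.02 over all genes tested. These shares, 25% and 7.14%, compare with 16.2% and 16% over all genes. Leaving out 1 library ended the calls of INPP5K (adjusted p = 0.0969 to 0.419 without wortmannin replicate 1 or 3 or vehicle replicate 3), INPPL1 (adjusted p = 0.0652 to 0.067 without wortmannin replicate 1 or vehicle replicate 1) and MTM1 (adjusted p = 0.0501 to 0.155 without wortmannin replicate 3 or vehicle replicate 1 or 2).

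Upstream of PI3K, the insulin receptor gene rose. INSR (ENSG00000171105, chromosome 19, 7112255 to 7294034) measured 105, 103 and 107 CPM with wortmannin, against 73.4, 72.8 and 73.1 CPM with vehicle. The lowest wortmannin library was well above the highest vehicle library, and the difference passed the test (log2 fold change 0.52 ± 0.0457 SE, adjusted p = 3.18e-13). IRS1, the adaptor that links the receptor to PI3K, rose by 0.43, and IGF1R and ERBB3, receptors for insulin-like growth factors and neuregulins, rose by 0.36 and 0.35. The docking proteins GAB1 and GAB2 rose by 0.27 and 0.31. IRS2 was scarce, at 0.115, 0.209 and 0.171 CPM with wortmannin, against 0.116, 0.114 and 0.120 CPM with vehicle, and did not pass the test. EGFR and MET, receptors for epidermal and hepatocyte growth factors, gave 0.05 and 0.00 and did not pass. 2 adaptors fell, namely SHC1, which feeds the RAS pathway, by a log2 fold change of -0.16 and SH2B3, a brake on receptor signalling, by -0.22. Of 18 tested receptors and adaptors 7 rose and 2 fell (38.9% and 11.1%, against 16.2% and 16% over all genes), with a median log2 fold change of 0.10.

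Downstream of PI3K, the kinases and regulators had called shares close to those over all genes. SGK1, a kinase that is activated through PI3K and shares targets with AKT, measured 79.3, 78.3 and 79.6 CPM with wortmannin, against 60, 59.6 and 54.2 CPM with vehicle. The groups did not overlap (log2 fold change 0.45 ± 0.0422 SE, adjusted p = 3.34e-12). EIF4EBP2, a repressor of cap-dependent translation that mTORC1 inactivates, measured 209, 212 and 212 CPM with wortmannin, against 170.2, 165 and 162 CPM with vehicle. It too was separated between groups (log2 fold change 0.35 ± 0.0342 SE, adjusted p = 1.24e-11). TSC2, a brake on mTORC1, rose by 0.31, PHLPP1, a phosphatase that acts on AKT, by 0.29 and PDPK1, which phosphorylates AKT, by 0.22. DDIT4, a stress-induced inhibitor of mTORC1, fell to 22, 23.1 and 23.2 CPM with wortmannin, against 30.8, 28.9 and 39.2 CPM with vehicle (log2 fold change -0.53 ± 0.0898 SE, adjusted p = 4.92e-06). AKT2 rose by 0.14 and ATM by 0.24, while AKT1, GSK3A, RHEB and MAPKAP1 were lower, at log2 fold changes of -0.13, -0.21, -0.19 and -0.16. MTOR and PRKDC, the genes of mTOR and DNA-PK, gave 0.06 and -0.13 and did not pass. DEPTOR, an mTOR-binding protein, gave 0.71 with an adjusted p of 0.0574. Over the 31 genes of this list 7 rose and 5 fell, 22.6% and 16.1% against 16.2% and 16% over all genes, and the median log2 fold change was 0.05. Without the 3 extract libraries that stood apart 9 fell. Leaving out 1 library ended the calls of AKT2 (adjusted p = 0.064 without wortmannin replicate 3), ATM (adjusted p = 0.0684 to 0.086 without wortmannin replicate 3 or vehicle replicate 1 or 2) and RHEB (adjusted p = 0.0926 without vehicle replicate 2).

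G6PC1, a FOXO-regulated gene of glucose output, had the largest positive log2 fold change among the called genes with a symbol, a group mean of at least 1 CPM and groups that did not overlap. G6PC1 (ENSG00000131482, chromosome 17, 42900797 to 42913369, plus strand; all coordinates of genes are GRCh38 from GENCODE 29) encodes the catalytic subunit of glucose-6-phosphatase, the last step of glucose release. It measured 17.2, 21 and 17.8 CPM with wortmannin, against 2.58, 2.32 and 2.76 CPM with vehicle. Every wortmannin library was several times above every vehicle library (log2 fold change 2.87 ± 0.115 SE, adjusted p = 5.61e-25). PCK1 (ENSG00000124253, chromosome 20, 57561080 to 57568112), which encodes the cytosolic phosphoenolpyruvate carboxykinase that starts gluconeogenesis, measured 7.77, 6.15 and 7.48 CPM with wortmannin, against 3.85, 3.30 and 3.89 CPM with vehicle. The groups did not overlap (log2 fold change 0.96 ± 0.117 SE, adjusted p = 3.79e-09). A further gene of this role, IGFBP1 (ENSG00000146678, chromosome 7, 45888357 to 45893668), an insulin-repressed binding protein for insulin-like growth factors, averaged 106 ± 3.04 CPM with wortmannin and 39.8 ± 4.38 CPM with vehicle (SD, n = 3 each). PPARGC1A, a coactivator of gluconeogenic genes, rose by 0.42, PCK2, the mitochondrial carboxykinase, by 0.39, TAT, a tyrosine-catabolic enzyme, by 0.33 and SLC37A4, the transporter that feeds glucose-6-phosphatase, by 0.17. The call was lost for TAT (adjusted p = 0.0675 without vehicle replicate 3).

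Most insulin-repressed genes of lipoprotein and plasma protein output rose too. APOC3, a plasma protein that slows triglyceride clearance, measured 76, 75.5 and 79 CPM with wortmannin, against 45.2, 49.5 and 51 CPM with vehicle (log2 fold change 0.66 ± 0.0649 SE, adjusted p = 1.03e-11). MTTP, which loads lipid onto apolipoprotein B, rose by 0.50. SELENOP (ENSG00000250722, chromosome 5, 42799880 to 42887392, minus strand), the plasma carrier of selenium, measured 1911, 1925 and 1879 CPM with wortmannin, against 1327, 1315 and 1309 CPM with vehicle. Its groups were far apart (log2 fold change 0.53 ± 0.0464 SE, adjusted p = 3.12e-13). These genes share 1 liver role with the genes of the paragraph above, from G6PC1 to SLC37A4. Of the 11 tested genes of that whole role 10 rose and 1 fell (90.9% and 9.09%, against 16.2% and 16% over all genes). PDK4 did not pass the filter.

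FOXO targets known from many cell types were mixed, with 7 higher and 2 lower of 21 tested (33.3% and 9.52%, against 16.2% and 16% over all genes) and a median log2 fold change of 0.00. YPEL3 (ENSG00000090238, chromosome 16, 30092314 to 30096915, minus strand), a small protein linked to growth arrest, measured 11.6, 10.5 and 11.9 CPM with wortmannin, against 5.86, 5.89 and 8.05 CPM with vehicle. The groups did not overlap (log2 fold change 0.78 ± 0.128 SE, adjusted p = 2.42e-06). KLHL24, an adaptor of ubiquitin ligases, rose by 0.70, CCNG2, a cyclin of cells that leave the cycle, by 0.46, and SESN3, an inhibitor of mTORC1, by 0.40. YPEL5, KLF15 and TXNIP rose by 0.27, 0.26 and 0.36. TRIB1, a pseudokinase, and KLF6, a zinc-finger factor, were lower, at log2 fold changes of -0.38 and -0.26. CDKN1B, BCL6, BCL2L11, GADD45A, SESN1, FBXO32 and CAT gave -0.07, 0.08, -0.06, -0.15, -0.07, 0.03 and -0.03, and did not pass the test. Of the factors themselves FOXO4 rose by 0.39, while FOXO1 and FOXO3 gave -0.10 and 0.12 and did not pass. The calls of KLF15 (adjusted p = 0.052 to 0.148 without wortmannin replicate 1, 2 or 3 or vehicle replicate 1 or 2) and SESN3 (adjusted p = 0.0604 to 0.0664 without vehicle replicate 1 or 3) depended on single libraries. Together, 18 of 35 tested genes of the FOXO list rose and 3 fell, with a median log2 fold change of 0.17, which was 0.50 over the 11 liver genes and 0.00 over the 21 targets of many cells.

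The promoters of 3 of these genes are printed from RefSeq (GRCh38.p14), each 300 bases from 250 before to 50 after the RefSeq start and written along the gene's own strand, because they show where the forkhead core lies or is missing in the genes that rose. Capitals mark the forkhead core TGTTTAC or its reverse complement. The insulin response core CAAAACA was searched in the same way on both strands. The windows are chr17:42900549-42900848 (plus strand), chr5:42811843-42812142 (minus strand) and chr16:30096164-30096463 (minus strand).
G6PC1: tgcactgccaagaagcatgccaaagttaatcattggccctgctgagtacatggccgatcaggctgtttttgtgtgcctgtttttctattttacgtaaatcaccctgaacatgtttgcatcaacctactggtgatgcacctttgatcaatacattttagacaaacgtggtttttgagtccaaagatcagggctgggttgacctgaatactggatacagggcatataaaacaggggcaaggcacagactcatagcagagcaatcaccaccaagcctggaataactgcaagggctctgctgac
SELENOP: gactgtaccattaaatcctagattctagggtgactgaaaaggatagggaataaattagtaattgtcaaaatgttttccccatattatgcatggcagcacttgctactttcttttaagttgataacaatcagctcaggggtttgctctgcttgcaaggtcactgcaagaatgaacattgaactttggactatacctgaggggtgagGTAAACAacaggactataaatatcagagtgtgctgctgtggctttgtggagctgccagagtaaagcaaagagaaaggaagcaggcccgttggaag
YPEL3: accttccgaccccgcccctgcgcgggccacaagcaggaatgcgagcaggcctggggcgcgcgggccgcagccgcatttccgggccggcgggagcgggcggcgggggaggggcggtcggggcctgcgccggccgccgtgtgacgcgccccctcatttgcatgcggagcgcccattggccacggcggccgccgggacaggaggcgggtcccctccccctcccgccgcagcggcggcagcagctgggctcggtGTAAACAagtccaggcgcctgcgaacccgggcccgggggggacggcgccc
SELENOP held the forkhead core from base -45 to -39 and YPEL3 from base 1 to 7, both on the strand opposite to the gene. Bases are counted from the RefSeq start inside each printed window, which can lie inside the longer gene span given from GENCODE, as for SELENOP, YPEL3, NOP2 and PLK1. The G6PC1 window held neither core, which says only that these letters are not in these 300 bases. Over the 11311 tested genes with an entry, 2.38% held TGTTTAC and 3.14% held CAAAACA. Among 122 genes that were higher by a log2 fold change of 1 or more, 5.74% and 3.28% held them, and among 27 genes of the FOXO list, 22.2% and 7.41%. Among 41 plasma protein promoters 9.76% held TGTTTAC. These shares are descriptions of letters and not of binding sites.

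**Figure D2:**
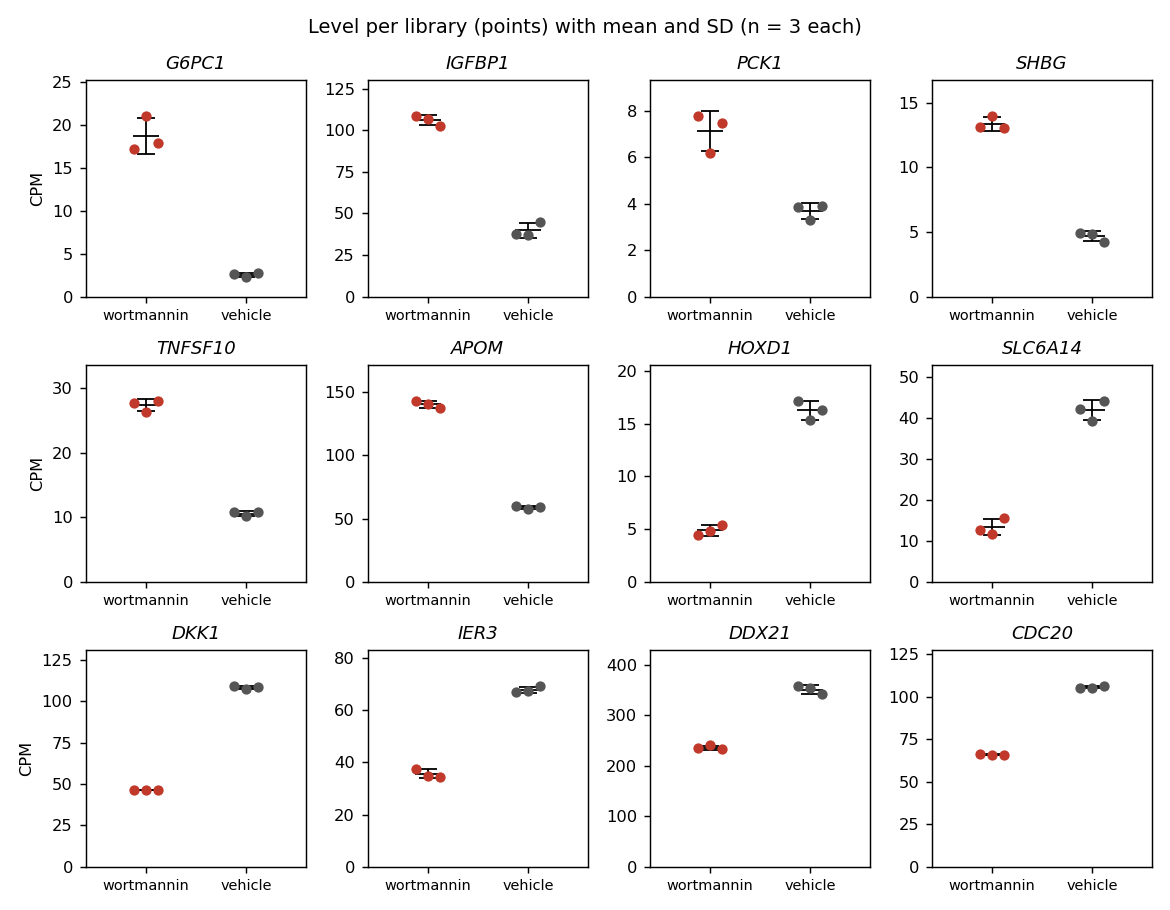
Level in CPM (vertical axis of each panel) of 12 genes in each of 3 wortmannin libraries (left) and 3 vehicle libraries (right), with the mean and SD of each group. G6PC1, IGFBP1, PCK1, SHBG, TNFSF10 and APOM are higher and HOXD1, SLC6A14, DKK1, IER3, DDX21 and CDC20 lower in all 3 wortmannin libraries than in any vehicle library.

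Of 33 tested genes in a list of glucose use and lipid synthesis, 15 rose and 6 fell, with a median log2 fold change of 0.09. These shares are 45.5% and 18.2%, against 16.2% and 16% over all genes. The list was drawn up around insulin-induced genes, and control of each member by insulin was not tested. Of 11 glucose use genes 6 rose and 4 fell, and of 17 lipid synthesis genes 7 rose and 1 fell. Of 5 factors 2 rose and 1 fell. SLC2A2, the low-affinity glucose transporter of hepatocytes, measured 81.2, 81.9 and 78.1 CPM with wortmannin, against 52.2, 53.1 and 47.9 CPM with vehicle (log2 fold change 0.65 ± 0.0465 SE, adjusted p = 4.59e-16). PKLR, the liver pyruvate kinase, measured 23.2, 22.8 and 23.1 CPM with wortmannin, against 14.6, 14.4 and 15.3 CPM with vehicle (log2 fold change 0.64 ± 0.0662 SE, adjusted p = 5.61e-11). These genes, with the glucokinase regulator GCKR (0.52) and MLXIPL (0.46), the carbohydrate-sensing factor that drives PKLR, were all higher with wortmannin. The genes that fell included HK2, the hexokinase of growing cells, at 72.7, 76.1 and 74.7 CPM with wortmannin, against 102, 106 and 106 CPM with vehicle (log2 fold change -0.49 ± 0.0505 SE, adjusted p = 4.37e-11), and SLC2A3, a high-affinity glucose transporter, with a log2 fold change of -0.45. SREBF1, the lipogenic factor, FASN, fatty acid synthase, SCD, the stearoyl desaturase, and ACACA, acetyl-CoA carboxylase, gave -0.01, 0.06, 0.09 and -0.02, and none of these passed the test. SREBF1 levels were 61.4, 59.3 and 59.7 CPM with wortmannin, against 59.9, 58.6 and 62.7 CPM with vehicle.

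Genes of sterol synthesis and uptake had increases and no called decrease. Of 28 tested, 16 rose and 0 fell in edgeR's quasi-likelihood test (57.1% and 0%, against 16.2% and 16% over all genes), 12 of 20 for synthesis and 4 of 8 for uptake and control, with a median log2 fold change of 0.18. At an unadjusted p under 0.05, 17 were higher and 0 lower, and DESeq2 called 16 higher and 0 lower. TM7SF2, a sterol reductase, measured 101, 98.7 and 101 CPM with wortmannin, against 64.4, 63.5 and 65.2 CPM with vehicle (log2 fold change 0.64 ± 0.0646 SE, adjusted p = 2.14e-11). MSMO1, LSS and MVD rose by 0.37, 0.32 and 0.30. The summed level of the 20 synthesis genes was 5975 to 6027 CPM with wortmannin and 5102 to 5107 CPM with vehicle.

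Fatty acid oxidation and ketone genes mostly rose, with 23 higher and 2 lower of 29 tested (79.3% and 6.9%, against 16.2% and 16% over all genes) and a median log2 fold change of 0.33. BDH1, which interconverts the ketone bodies, measured 45.4, 43.7 and 50.4 CPM with wortmannin, against 19.5, 19.6 and 23 CPM with vehicle (log2 fold change 1.17 ± 0.0639 SE, adjusted p = 3.35e-20). CREB3L3, a membrane-bound factor that works with PPAR alpha in fasting, averaged 19.6 ± 1.39 CPM with wortmannin and 8.44 ± 0.790 CPM with vehicle (SD, n = 3 each). CPT1A, the gate for fatty acids into mitochondria, measured 64, 59.5 and 58.4 CPM with wortmannin, against 36.7, 37.5 and 39 CPM with vehicle (log2 fold change 0.68 ± 0.0618 SE, adjusted p = 9.09e-13). For all of these the groups did not overlap. ANGPTL4, an inhibitor of lipoprotein lipase, rose by 0.81 and ACADS, the short-chain acyl-CoA dehydrogenase, by 0.48. The 2 that fell were PLIN2, a lipid droplet coat protein, and ACSL1, which activates fatty acids, with log2 fold changes of -0.46 and -0.19, and both were chosen for mention after their values were seen.

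Genes of secreted plasma proteins mostly rose. Of 52 tested, 38 rose and 3 fell (73.1% and 5.77%, against 16.2% and 16% over all genes), with a median log2 fold change of 0.31. APOM (ENSG00000204444, chromosome 6, 31652416 to 31658210), the lipoprotein carrier of sphingosine-1-phosphate, measured 143, 141 and 138 CPM with wortmannin, against 60, 57.2 and 59.2 CPM with vehicle. Every wortmannin library was far above every vehicle library (log2 fold change 1.26 ± 0.0537 SE, adjusted p = 3.51e-24). TTR (ENSG00000118271, chromosome 18, 31557010 to 31599021), the carrier of thyroxine and retinol-binding protein, measured 111, 108 and 109 CPM with wortmannin, against 53.9, 51.2 and 56.8 CPM with vehicle (log2 fold change 1.02 ± 0.0642 SE, adjusted p = 5.79e-18). FGA (ENSG00000171560, chromosome 4, 154583126 to 154590766), the fibrinogen alpha chain, measured 1823, 1751 and 1751 CPM with wortmannin, against 1003, 962 and 1021 CPM with vehicle (log2 fold change 0.83 ± 0.0356 SE, adjusted p = 3.51e-24). The 3 genes thus had groups that were far apart relative to their spread. APOC1 and F12, coagulation factor XII, rose by 0.69 and 0.70. HPX, hemopexin, the plasma carrier of haem, fell to 7.65, 7.49 and 9.19 CPM with wortmannin, against 12.8, 12 and 14.7 CPM with vehicle (log2 fold change -0.69 ± 0.0948 SE, adjusted p = 6.51e-08).

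By role, 13 of 14 tested coagulation genes rose, 9 of 12 apolipoprotein and lipoprotein enzyme genes, 8 of 13 carriers and 8 of 13 complement genes. These shares, 92.9%, 75%, 61.5% and 61.5%, compare with 16.2% higher over all genes. The coagulation genes summed to 4953 to 5050.3 CPM with wortmannin and 3172 to 3368 CPM with vehicle. The fibrinogen chains FGB and FGG rose by 0.38 and 0.63, and factors F5, F7, F10 and F11 by 0.54, 0.56, 0.58 and 0.57. PLG, plasminogen, gave 0.31 and did not pass. APOE, APOA2 and APOC2 rose by 0.54, 0.51 and 0.67, APOA1 by 0.22 and APOB gave 0.22 with an adjusted p of 0.122. APOH, beta-2-glycoprotein I, fell, with a log2 fold change of -0.10. SERPINA3, an acute-phase protease inhibitor, was the other carrier that fell, at -0.61. The members of the coagulation and apolipoprotein roles, ALB and SERPINA3 are named here after their values were seen. Leaving out 1 library ended the calls of APOA1 (adjusted p = 0.0547 to 0.195 without wortmannin replicate 2 or 3 or vehicle replicate 1, 2 or 3), APOH (adjusted p = 0.0582 to 0.0767 without wortmannin replicate 2 or 3) and PROS1 (adjusted p = 0.0518 to 0.098 without wortmannin replicate 1 or vehicle replicate 1 or 3). Of the 13 markers of hepatocytes and HepG2, 8 were higher and 3 lower (61.5% and 23.1%, against 16.2% and 16% over all genes). Without vehicle replicate 2, 5 of the 13 were higher. ALB itself rose by 0.23. Summed levels of the other cell types were 13.6 to 15 CPM with wortmannin and 9.71 to 10.4 CPM with vehicle for mesenchyme, 37.7 to 39.9 CPM with wortmannin and 27.4 to 31.7 CPM with vehicle for blood and 4.10 to 4.65 CPM with wortmannin and 3.43 to 5.41 CPM with vehicle for endothelium, and their part in these increases was not tested.

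**Figure D3:**
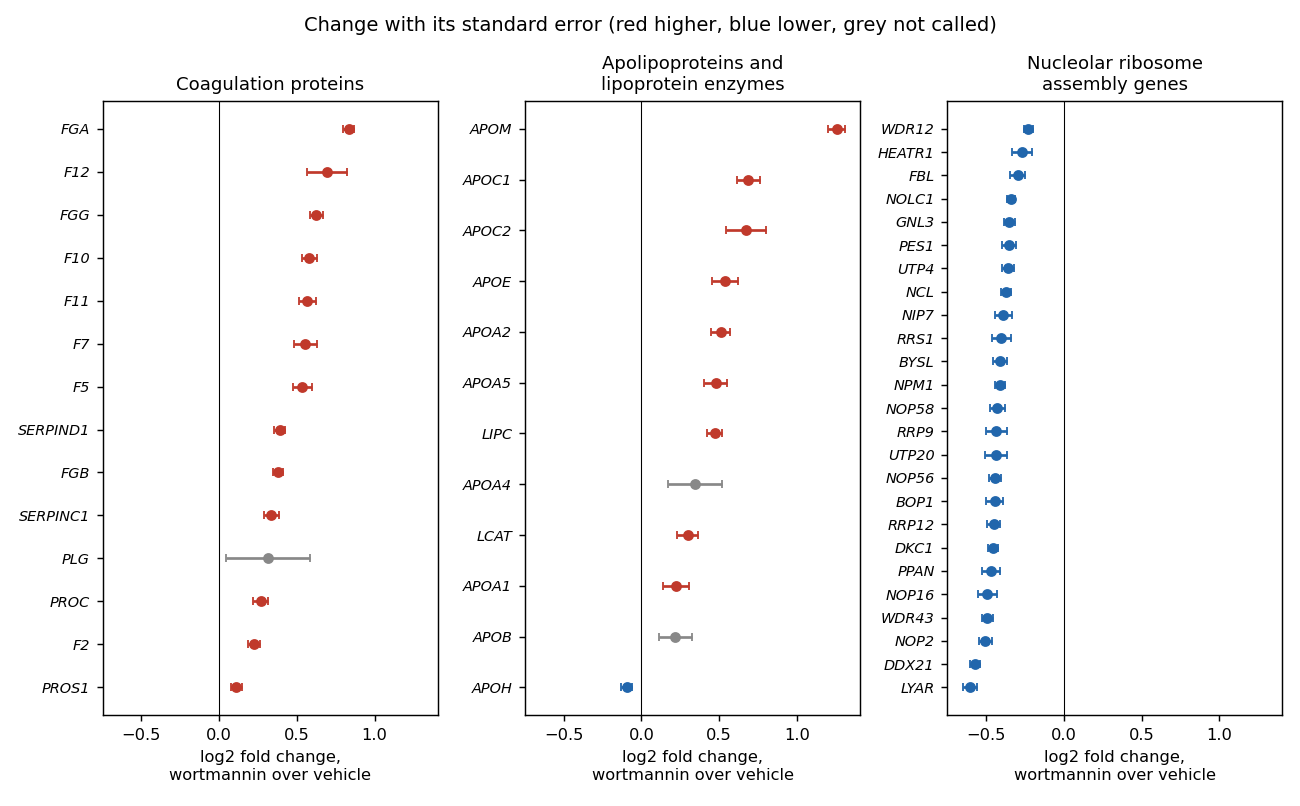
Log2 fold change of wortmannin over vehicle (horizontal axis) with its standard error (bars) for the tested coagulation genes, apolipoprotein and lipoprotein enzyme genes, and nucleolar ribosome assembly genes, coloured red for higher, blue for lower and grey for not called. The coagulation genes run from 0.11 for PROS1 to 0.83 for FGA, and the 25 nucleolar genes all lie below 0, from -0.60 for LYAR to -0.23 for WDR12.

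Genes of bile acid and drug metabolism, further hepatocyte functions, had more increases than decreases. Of 13 tested bile acid genes 9 rose and 1 fell (69.2% and 7.69%, against 16.2% and 16% over all genes), with a median log2 fold change of 0.30. CYP8B1, which is needed to make cholic acid, measured 4.85, 4.60 and 4.65 CPM with wortmannin, against 2.08, 2.35 and 2.80 CPM with vehicle (log2 fold change 0.96 ± 0.148 SE, adjusted p = 7.93e-07). CYP7A1, the rate-limiting enzyme of bile acid synthesis, measured 0.692, 0.795 and 1.33 CPM with wortmannin, against 0.617, 0.228 and 0.361 CPM with vehicle (log2 fold change 1.23 ± 0.348 SE, adjusted p = 0.00438), and SLC10A1, the bile acid uptake carrier, measured 0.385, 0.460 and 0.410 CPM with wortmannin, against 0.116, 0.0760 and 0.160 CPM with vehicle (log2 fold change 1.80 ± 0.516 SE, adjusted p = 0.00515). These last values were all near or below 1 CPM, and the call was lost for CYP7A1 (adjusted p = 0.0551 to 0.0934 without wortmannin replicate 3 or vehicle replicate 2). Of 28 drug-metabolism genes 14 rose and 3 fell (50% and 10.7%), with a median of 0.24, or 0.20 over the 27 with counts in both groups. SULT1C2, a sulfotransferase, measured 16.8, 17.4 and 14.8 CPM with wortmannin, against 7.44, 8.28 and 7.37 CPM with vehicle (log2 fold change 1.08 ± 0.0916 SE, adjusted p = 1.29e-13). CYP3A7, the fetal liver cytochrome, rose by 0.63 and UGT2B4, a glucuronosyltransferase of bile acids, fell by a log2 fold change of -0.54. CYP1A2 passed the test with 0.0769, 0.293 and 0.103 CPM with wortmannin, against 0, 0 and 0 CPM with vehicle, and no fold is given because vehicle had no count. CYP2D6 has near-identical neighbouring copies among which reads can be split, and its value of 1.44 is uncertain for that reason.

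Hepatocyte transcription factors did not move together, with 4 higher and 3 lower of 19 tested (21.1% and 15.8%, against 16.2% and 16% over all genes) and a median log2 fold change of -0.00. NR1H4, the bile acid receptor FXR, measured 53.4, 57.9 and 58.2 CPM with wortmannin, against 74.4, 79.5 and 72.9 CPM with vehicle (log2 fold change -0.42 ± 0.0481 SE, adjusted p = 8.23e-10). NR0B2, the repressor that FXR induces, rose by 0.35, and NR1I2, the xenobiotic receptor PXR, by 0.31. The keratins KRT18 and KRT8 of the HepG2 marker list fell by log2 fold changes of -0.42 and -0.34.

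Ribosome assembly genes fell almost without exception. Of 35 tested, 32 fell and 0 rose, with a median log2 fold change of -0.40, beside 16% lower over all genes. At an unadjusted p under 0.05 34 were lower and 0 higher, and DESeq2 called 32 lower and 0 higher. All 25 tested nucleolar genes fell. DDX21 (ENSG00000165732, chromosome 10, 68956128 to 68985073), a nucleolar RNA helicase, measured 235, 240.4 and 233 CPM with wortmannin, against 358, 353 and 341 CPM with vehicle. The groups were far apart (log2 fold change -0.57 ± 0.0331 SE, adjusted p = 3.34e-19). LYAR, a nucleolar growth regulator, measured 42, 46.7 and 42.1 CPM with wortmannin, against 66.3, 69.7 and 62.4 CPM with vehicle (log2 fold change -0.60 ± 0.0476 SE, adjusted p = 1.31e-14). NOP2 (ENSG00000111641, chromosome 12, 6556863 to 6568691), a methyltransferase of ribosomal RNA, measured 60.7, 60.9 and 61.7 CPM with wortmannin, against 88.8, 86.6 and 84.6 CPM with vehicle (log2 fold change -0.50 ± 0.0407 SE, adjusted p = 2.7e-14). WDR43 (ENSG00000163811, chromosome 2, 28894643 to 28948222), a part of the small-subunit processome, measured 139.7, 138 and 131 CPM with wortmannin, against 192, 192 and 190.1 CPM with vehicle (log2 fold change -0.49 ± 0.0375 SE, adjusted p = 4.56e-15). The 25 nucleolar genes together summed to 4704 to 4846 CPM with wortmannin and 6222 to 6367 CPM with vehicle. Of 10 tested genes of RNA polymerases I and III, 7 fell, led by POLR3G and POLR1C at -0.63 and -0.54, while POLR1A, POLR3D and MAF1 gave -0.13, 0.04 and -0.10 and did not pass. MYC, a driver of these genes that was chosen for mention after its value was seen, measured 136, 136 and 129 CPM with wortmannin, against 164, 160.3 and 166 CPM with vehicle (log2 fold change -0.29 ± 0.0453 SE, adjusted p = 8.5e-07).

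The promoters of NOP2 and WDR43 are printed because both hold the E-box CACGTG, the letters that MYC and related factors recognise, in capitals. This motif reads the same on both strands, and it was added to the search after the values were seen. The windows are chr12:6568242-6568541 (minus strand) and chr2:28894417-28894716 (plus strand) of GRCh38.p14, from RefSeq, written along each gene's own strand.
NOP2: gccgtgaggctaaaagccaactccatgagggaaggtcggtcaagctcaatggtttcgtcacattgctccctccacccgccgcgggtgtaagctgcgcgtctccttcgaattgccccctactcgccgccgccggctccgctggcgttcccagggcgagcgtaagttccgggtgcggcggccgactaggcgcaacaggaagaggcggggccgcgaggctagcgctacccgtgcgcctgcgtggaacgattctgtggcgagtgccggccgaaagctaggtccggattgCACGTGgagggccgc
WDR43: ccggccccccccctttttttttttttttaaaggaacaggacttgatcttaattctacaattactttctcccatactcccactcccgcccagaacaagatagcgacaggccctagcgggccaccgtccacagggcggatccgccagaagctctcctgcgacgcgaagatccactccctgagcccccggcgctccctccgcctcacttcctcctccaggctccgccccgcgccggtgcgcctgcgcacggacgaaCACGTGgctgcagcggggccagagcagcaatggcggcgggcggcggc
The E-box lay at bases 36 to 41 of NOP2 and 4 to 9 of WDR43, counted from the RefSeq start of each window. It was present in 30.8% of 26 ribosome assembly promoters with an entry and in 9.99% of the 11311 promoters of all tested genes. Among the 2184 promoters of genes lower with wortmannin 12.1% held it, and among the 2011 of genes higher 8.5%. It was also present in 22.2% of the 27 promoters of the FOXO list, in 18.2% of 33 mitosis promoters and in 2.44% of 41 plasma protein promoters.

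Every tested gene of the mitosis list fell, 39 of 39, beside 16% lower over all genes, with a median log2 fold change of -0.35. Against a minimum fold change of 1.2, 17 passed, and without a filter on low counts 38 were called lower. At an unadjusted p under 0.05 39 were lower and 0 higher, and DESeq2 called 39 lower and 0 higher. CDC20 (ENSG00000117399, chromosome 1, 43358955 to 43363203), the activator of the anaphase-promoting complex, measured 66.6, 66 and 65.5 CPM with wortmannin, against 105, 105 and 106 CPM with vehicle (log2 fold change -0.68 ± 0.0336 SE, adjusted p = 7.91e-22). PLK1 (ENSG00000166851, chromosome 16, 23677656 to 23690367), a mitotic kinase, measured 157, 162 and 158 CPM with wortmannin, against 241, 234 and 249 CPM with vehicle (log2 fold change -0.60 ± 0.0406 SE, adjusted p = 6.95e-17). PTTG1, securin, which keeps sister chromatids from separating early, measured 35.4, 34.8 and 32.5 CPM with wortmannin, against 58.4, 59.7 and 57.3 CPM with vehicle (log2 fold change -0.77 ± 0.0522 SE, adjusted p = 6.95e-17). The groups did not overlap for any of the 3. CCNB1 and CCNB2, the mitotic cyclins, and CENPA, the centromeric histone, fell by log2 fold changes of -0.66, -0.52 and -0.49. The 14 kinases and cyclins summed to 1018 to 1055 CPM with wortmannin and 1380.1 to 1408 CPM with vehicle. Leaving out 1 library ended the calls of ASPM (adjusted p = 0.0732 to 0.119 without wortmannin replicate 1, 2 or 3 or vehicle replicate 1 or 2) and CDC25C (adjusted p = 0.069 to 0.0834 without wortmannin replicate 2 or 3 or vehicle replicate 3). CDK1 and MKI67 lost theirs too (adjusted p up to 0.0557 and 0.0641). These genes are named here after their values were seen.

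The promoters of CDC20 and PLK1 are printed because they carry the paired elements of cell cycle genes. Capitals mark TTTGAA (or its reverse complement TTCAAA), the core of the cell cycle homology region, and the CCAAT box (or ATTGG), each searched on both strands. The windows are chr1:43358731-43359030 and chr16:23678639-23678938, both on the plus strand of GRCh38.p14, from RefSeq.
CDC20: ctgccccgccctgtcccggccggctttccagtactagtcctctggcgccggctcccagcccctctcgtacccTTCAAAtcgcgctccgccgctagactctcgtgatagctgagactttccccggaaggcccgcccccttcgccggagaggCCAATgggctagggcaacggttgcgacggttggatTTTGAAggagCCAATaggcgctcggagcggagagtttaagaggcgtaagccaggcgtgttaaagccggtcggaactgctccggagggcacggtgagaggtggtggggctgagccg
PLK1: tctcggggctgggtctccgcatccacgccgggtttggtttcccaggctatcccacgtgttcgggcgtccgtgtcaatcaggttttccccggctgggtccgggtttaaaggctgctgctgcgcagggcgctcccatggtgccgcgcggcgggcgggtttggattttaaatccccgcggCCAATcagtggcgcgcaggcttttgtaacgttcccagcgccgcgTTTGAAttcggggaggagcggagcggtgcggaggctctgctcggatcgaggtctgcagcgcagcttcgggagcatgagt
CDC20 held TTTGAA at bases -65 to -60 and, on the opposite strand, at -178 to -173, with CCAAT at -100 to -96 and -55 to -51. PLK1 held TTTGAA at -29 to -24 and CCAAT at -73 to -69. Of 33 mitosis promoters with an entry 60.6% held TTTGAA and 72.7% held CCAAT, and over the 11311 promoters of tested genes the shares were 9.91% and 36.5%. Other lists held them too, with TTTGAA in 31.7% of 41 plasma protein promoters and CCAAT in 48.1% of the 27 of the FOXO list.

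DNA replication genes had 1 higher and 9 lower of 26 tested (3.85% and 34.6%, against 16.2% and 16% over all genes) and a median log2 fold change of -0.11. Without the 3 extract libraries that stood apart 14 were lower. MCM7, a subunit of the replicative helicase, measured 219, 218 and 217 CPM with wortmannin, against 263, 269 and 259 CPM with vehicle (log2 fold change -0.27 ± 0.0282 SE, adjusted p = 5.33e-11), and TYMS, thymidylate synthase, fell by a log2 fold change of -0.26. Genes of cell cycle entry were mixed, with 3 higher and 6 lower of 18 (16.7% and 33.3%). E2F1, E2F2 and CCNE1, which drive entry into S phase, rose by 0.24, 0.37 and 0.25. CCND2, a D-type cyclin, and CDKN2B, an inhibitor of CDK4, fell by -0.83 and -0.61. Targets of p53 had 3 higher and 10 lower of 22 (13.6% and 45.5%). TP53INP1, which promotes p53-dependent arrest, rose by 0.47, while GDF15, a stress-induced cytokine, and PMAIP1, a BH3-only death protein, fell by -0.43 and -0.49, and CDKN1A, the p21 inhibitor, fell by -0.20. Leaving out 1 library ended the calls of CCND2 (adjusted p = 0.0531 to 0.0887 without wortmannin replicate 1 or 2 or vehicle replicate 3) and PMAIP1 (adjusted p = 0.0613 to 0.114 without wortmannin replicate 1 or 3 or vehicle replicate 1 or 2).

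Among 31 tested immediate early genes and feedback genes of the ERK cascade, 1 was higher and 15 were lower (3.23% and 48.4%, against 16.2% and 16% over all genes), with a median log2 fold change of -0.25. Lower were 3 of 8 AP-1 genes, 5 of 11 feedback genes and 7 of the 12 others. EGR1, a zinc-finger factor of the serum response, measured 6.92, 6.53 and 6.59 CPM with wortmannin, against 11.7, 11.1 and 12.8 CPM with vehicle (log2 fold change -0.83 ± 0.0878 SE, adjusted p = 1.01e-10). DUSP5, a nuclear phosphatase of ERK, measured 1.96, 1.97 and 2.19 CPM with wortmannin, against 3.85, 3.91 and 4.41 CPM with vehicle (log2 fold change -0.99 ± 0.131 SE, adjusted p = 3.25e-08). IER3, an early response gene linked to survival, averaged 35.7 ± 1.70 CPM with wortmannin and 67.8 ± 1.25 CPM with vehicle (SD, n = 3 each). In each case the 3 wortmannin libraries lay below the 3 vehicle libraries. FOSL1, PHLDA1 and FOS fell by log2 fold changes of -0.85, -0.50 and -1.18, the last at 0.308, 0.167 and 0.342 CPM with wortmannin, against 0.732, 0.646 and 0.521 CPM with vehicle. The call was lost for FOS (adjusted p = 0.0541 to 0.106 without wortmannin replicate 2 or vehicle replicate 1 or 2). The gene that rose was the AP-1 member FOSL2, by 0.37, chosen for mention after its value was seen.

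Stress-response lists had more decreases than increases, most of them small. Of 26 NRF2 targets 1 rose and 19 fell (3.85% and 73.1%, against 16.2% and 16% over all genes), with a median log2 fold change of -0.20. GCLM, which makes glutathione, and NQO1, a quinone reductase, fell by -0.36 and -0.36, and ABCC3, an export pump, rose by 0.37. Of 19 heat shock proteins 14 fell and 0 rose, with a median of -0.26; at an unadjusted p under 0.05 15 were lower and 0 higher, and DESeq2 called 14 lower and 0 higher. FKBP4 and CHORDC1, which work with HSP90, fell by -0.43 and -0.47. Of 20 chaperones of the endoplasmic reticulum 11 fell and 0 rose, with a median of -0.10, and both the unadjusted p under 0.05 and DESeq2 gave 11 lower and 0 higher. HSPA5, the major chaperone there, measured 1202, 1228 and 1203 CPM with wortmannin, against 1438, 1444 and 1428 CPM with vehicle (log2 fold change -0.25 ± 0.0322 SE, adjusted p = 2.11e-08), and DNAJB11 fell by -0.31.

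Genes of the ATF4 amino acid response had 4 higher and 20 lower of 39 (10.3% and 51.3%, against 16.2% and 16% over all genes), with a median log2 fold change of -0.16. MARS1 and CARS1, which charge transfer RNAs with methionine and cysteine, fell by -0.33 and -0.32, and 8 of 10 transfer RNA charging genes fell. STC2, a secreted glycoprotein, fell by -0.35, and NUPR1, a stress-induced nuclear protein, rose by 0.37. Of 26 genes of glycolysis and hypoxia 4 rose and 10 fell (15.4% and 38.5%). HIF1A, the hypoxia factor, and PFKFB3, which makes a stimulator of glycolysis, fell by -0.30 and -0.42, whereas NDRG1 and ALDOC, an aldolase, rose by 0.45 and 0.41. The 13 protein-coding transcripts of the mitochondrial genome did not pass the test in either direction. Their median log2 fold change was -0.08, and 0 were called at an unadjusted p under 0.05 in edgeR or by DESeq2. With the 6 libraries fitted alone 1 was higher and 5 were lower, and without a filter on low counts 4 were lower. They summed to 67045 to 69714 CPM with wortmannin and 64723 to 72897 CPM with vehicle.

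Autophagy and lysosome genes, which FOXO and the mTORC1-controlled factor TFEB promote, had 17 higher and 5 lower of 46 tested (37% and 10.9%, against 16.2% and 16% over all genes), with a median log2 fold change of 0.08. Without vehicle replicate 3, 3 were lower. CTSB, the lysosomal protease cathepsin B, measured 603, 606 and 579 CPM with wortmannin, against 373, 384 and 379 CPM with vehicle (log2 fold change 0.65 ± 0.0367 SE, adjusted p = 9.1e-20). WIPI1, a PI3P-binding autophagy protein, measured 52.2, 53.7 and 53 CPM with wortmannin, against 36.2, 37.9 and 39.4 CPM with vehicle (log2 fold change 0.49 ± 0.0470 SE, adjusted p = 6.91e-12). Both had groups that did not overlap. RRAGD, a GTPase that brings mTORC1 to lysosomes, and the autophagy receptor NBR1 rose by 0.77 and 0.35. ATG9B, a lipid scramblase of autophagosome formation, rose by 0.93 with an adjusted p of 0.0481. GLA, alpha-galactosidase, fell by -0.42. Leaving out 1 library ended the calls of ATG9B (adjusted p = 0.0953 to 0.17 without wortmannin replicate 1 or 3 or vehicle replicate 2 or 3) and RRAGD (adjusted p = 0.0558 without vehicle replicate 2). The 26 lysosome genes summed to 3091 to 3113 CPM with wortmannin and 2601 to 2642 CPM with vehicle. Endosomal proteins that bind or follow PI3P, the lipid of class III PI3K, had 3 higher and 4 lower of 21, 14.3% and 19%, close to the shares over all genes, with FIG4 at 0.34 and SNX2 at -0.25.

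**Figure D4:**
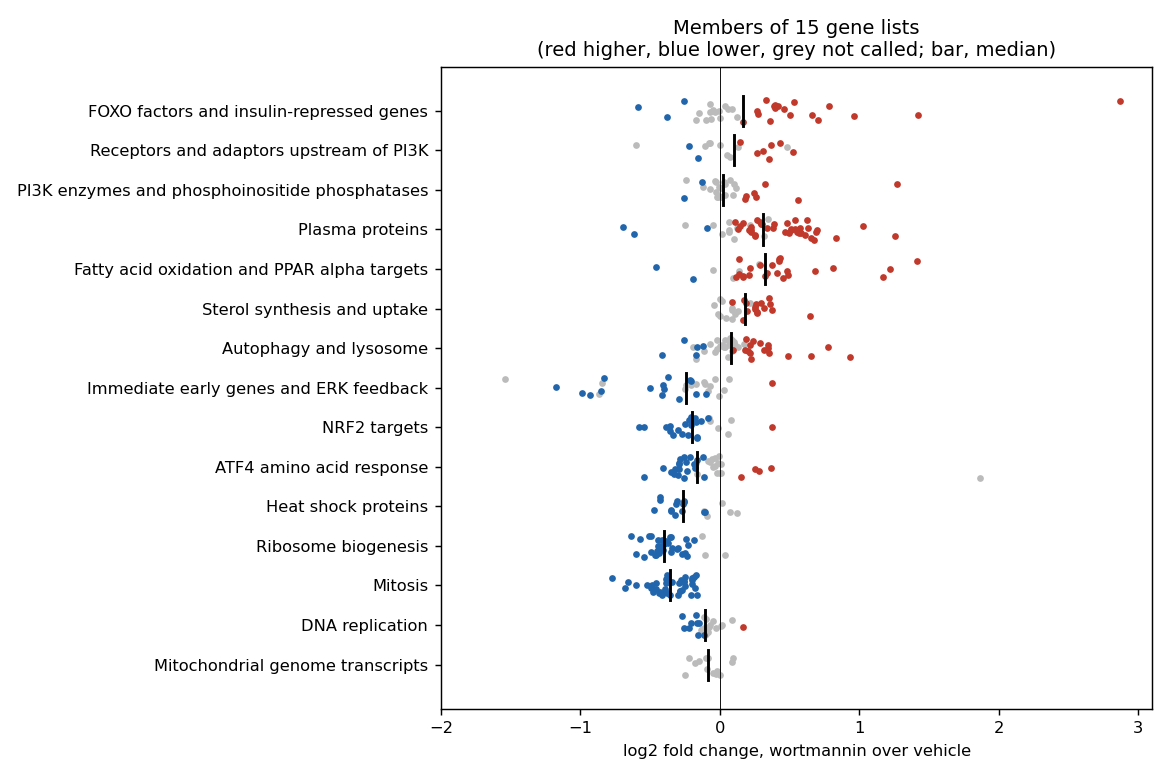
Log2 fold change of wortmannin over vehicle (horizontal axis) for the tested members of 15 gene lists (rows), red for higher, blue for lower, grey for not called, with a bar at each median. Medians run from 0.33 for fatty acid oxidation to -0.40 for ribosome biogenesis, the FOXO row reaches 2.87 with G6PC1, and the mitosis row lies wholly below 0; the grey point far to the right in the ATF4 row is a gene with no count in vehicle.

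Outside these lists, the 20 largest increases among genes with a group mean of at least 1 CPM included several liver-enriched genes. HAL, histidine ammonia-lyase, the first enzyme of histidine breakdown, measured 2.23, 2.76 and 2.08 CPM with wortmannin, against 0.501, 0.646 and 0.481 CPM with vehicle (log2 fold change 2.10 ± 0.246 SE, adjusted p = 1.41e-09). SHBG, the plasma carrier of sex steroids, measured 13.1, 14 and 13.1 CPM with wortmannin, against 4.93, 4.86 and 4.25 CPM with vehicle (log2 fold change 1.51 ± 0.118 SE, adjusted p = 8.83e-15). CCL16, a chemokine made in liver, measured 7.15, 7.07 and 6.49 CPM with wortmannin, against 2.43, 2.32 and 3.08 CPM with vehicle (log2 fold change 1.40 ± 0.122 SE, adjusted p = 2.91e-13). These 3 genes encode liver-secreted proteins or liver enzymes, and their groups did not overlap. TNFSF10, the death ligand TRAIL and a known FOXO target, measured 27.8, 26.3 and 28.1 CPM with wortmannin, against 10.8, 10.1 and 10.8 CPM with vehicle (log2 fold change 1.37 ± 0.0673 SE, adjusted p = 5.6e-22). PTPRN2, a phosphatase-like protein of secretory granules, measured 34, 33.2 and 33.2 CPM with wortmannin, against 14, 12.4 and 13.4 CPM with vehicle (log2 fold change 1.34 ± 0.0723 SE, adjusted p = 2.47e-20). DEPP1, a gene that FOXO factors induce, measured 36.7, 32.7 and 33.5 CPM with wortmannin, against 14.3, 12.8 and 14.5 CPM with vehicle (log2 fold change 1.31 ± 0.0759 SE, adjusted p = 3.31e-19). In none of these did a wortmannin library fall to the level of a vehicle library. The rest of the 20, apart from genes already described, were SLC25A47, a mitochondrial carrier of liver, SIGIRR, a brake on interleukin-1 signalling, PSTPIP1, FADS6, ADGRF3, C1orf210, LACTBL1, PALM2AKAP2, TRIM74 and PAQR9-AS1, with log2 fold changes from 1.35 for TRIM74 to 1.74 for C1orf210. TRIM74 and PALM2AKAP2 lost their calls in 7 and 4 of the 15 alternative fits, among them the fits without 1 library of TRIM74 (adjusted p = 0.0604 to 0.134 without wortmannin replicate 1, 2 or 3 or vehicle replicate 1 or 2) and PALM2AKAP2 (adjusted p = 0.0875 to 0.201 without wortmannin replicate 1 or vehicle replicate 1 or 2). TRIM74 has near-identical copies, and PAQR9-AS1 is antisense to another gene, so that their reads may belong elsewhere.

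The 20 largest decreases included a homeobox factor, transporters and secreted growth signals. HOXD1, a homeobox factor, measured 4.38, 4.85 and 5.36 CPM with wortmannin, against 17.2, 15.3 and 16.3 CPM with vehicle (log2 fold change -1.73 ± 0.109 SE, adjusted p = 6.61e-18). SLC6A14, a carrier of neutral and cationic amino acids, measured 12.7, 11.6 and 15.4 CPM with wortmannin, against 42, 39.3 and 44.1 CPM with vehicle (log2 fold change -1.65 ± 0.0791 SE, adjusted p = 3e-22). SLC6A12, the betaine carrier, measured 4.58, 4.18 and 4.37 CPM with wortmannin, against 8.13, 8.70 and 8.45 CPM with vehicle (log2 fold change -0.94 ± 0.105 SE, adjusted p = 3.68e-10). The groups were well separated for the 3 genes. Secreted factors were IL11, a cytokine of the IL6 family, at 2.15, 2.18 and 2.73 CPM with wortmannin, against 6.01, 5.24 and 4.73 CPM with vehicle (log2 fold change -1.17 ± 0.182 SE, adjusted p = 1.07e-06), EREG, an EGF-like ligand, at a log2 fold change of -1.12, INHBB, a subunit of activin B, at -1.27, DKK1, an inhibitor of Wnt signalling, at -1.22, and PLAU, urokinase, at -1.03. TNS4, a focal adhesion protein, measured 12.3, 11.2 and 12.2 CPM with wortmannin, against 25.2, 22.9 and 23.6 CPM with vehicle (adjusted p = 3.78e-14). GPRC5A, IGFN1, RASSF2, MYOF, ASB2, SH3TC2 and PPP2R2C fell by log2 fold changes between -1.61 and -1.03, all with group means below 3 CPM. USP2-AS1 and PHLDA1-AS1 are antisense genes, at -0.99 and -0.95, and without a stated strand setting for the counting their reads cannot be told from those of the genes opposite. TGIF2-RAB5IF, a readthrough of neighbouring genes, measured 1.00, 1.55 and 0 CPM with wortmannin, against 6.48, 4.82 and 3.69 CPM with vehicle (log2 fold change -2.62 ± 0.911 SE, adjusted p = 0.0218), and its call was lost in 4 of the 15 alternative fits. Without 1 library this held for TGIF2-RAB5IF (adjusted p = 0.0713 to 0.124 without wortmannin replicate 3 or vehicle replicate 1).

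Each gene was also tested against all 19 other groups at once. The title number is 1 for wortmannin and vehicle and 2, 3 or 4 for the extract groups. In the contrasts with extracts, a difference that goes with this number cannot be told apart from one of treatment. A gene was called apart when wortmannin differed in the same direction from vehicle and from every extract group and the largest of the 19 p-values passed after adjustment. By this rule 1083 genes, 6.51%, were apart, with 565 (3.4%) above and 518 (3.11%) below every other group. Without the 3 libraries that stood apart from their own groups the number was 1261, of which 1063 were among the 1083. G6PC1 was the gene with the largest fold against vehicle among those above. Its group mean was 18.7 CPM, while the 18 extract groups had means of 1.46 to 4.24 CPM (adjusted p = 1.63e-20 for the weakest contrast). SHBG, at 13.4 CPM, compared with 3.08 to 7.47 CPM over the extract groups (adjusted p = 1.17e-07). TTR, at 109.6 CPM, compared with 21.9 to 63.7 CPM (adjusted p = 9.63e-14). No extract group reached wortmannin for any of these. Further genes above every group were INSR, PIK3IP1, APOM, FGA, BDH1, TM7SF2, SELENOP, YPEL3 and EIF4EBP2, with adjusted p-values from 1.25e-15 for APOM to 0.00749 for YPEL3.

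IGFBP1 and PCK1 were not apart. In all, 7 extract groups had a higher IGFBP1 mean than wortmannin, up to 3931 CPM in Coptidis Rhizoma 210 ug/mL, against 106 CPM with wortmannin. PCK1 had its highest extract mean, 5.93 CPM, in Pinelliae Tuber 500 ug/mL, against 7.13 CPM with wortmannin, and that contrast did not separate them (adjusted p = 0.189 for the weakest contrast). By list, 26 of 52 tested plasma proteins and 10 of 28 sterol genes were above every other group, and 25 of 35 ribosome assembly genes were below every other group. Over all genes tested 3.4% were above and 3.11% below. Of 26 DNA replication genes, 20 chaperones of the endoplasmic reticulum, 19 hepatocyte transcription factors, 15 Wnt targets and 7 IGF axis genes, 0 were apart. Among the 39 mitosis genes 1 was apart, PTTG1, at 34.2 CPM with wortmannin against extract means of 43.7 to 57.2 CPM (adjusted p = 2.02e-06). CDC20, at 66.0 CPM with wortmannin, lay within the extract range of 43.2 to 114 CPM.

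Below every other group, IER3 had 35.7 CPM with wortmannin, against extract means of 58.2 to 711 CPM (adjusted p = 2.86e-14). DDX21 had 236 CPM with wortmannin, against extract means of 320.1 to 522 CPM (adjusted p = 1.08e-14). NOP2 had 61.1 CPM with wortmannin, against extract means of 85.6 to 119.6 CPM (adjusted p = 2.34e-13). In these genes every one of the 18 extract means was higher than that of wortmannin. AREG and IL11, an EGF-like ligand and a cytokine, had 3.50 and 2.35 CPM with wortmannin, and their lowest extract means were 6.10 and 4.85 CPM. HOXD1, SLC6A14 and DKK1 were among the largest decreases against vehicle but were not apart, and their lowest extract means were 2.16, 4.25 and 41.1 CPM, against 4.87, 13.3 and 46.4 CPM with wortmannin. The number of genes that differed between wortmannin and a single group ran from 4895 for Pinelliae Tuber 500 ug/mL to 12038 for Coptidis Rhizoma 210 ug/mL, with 5362 for vehicle.

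**Figure D5:**
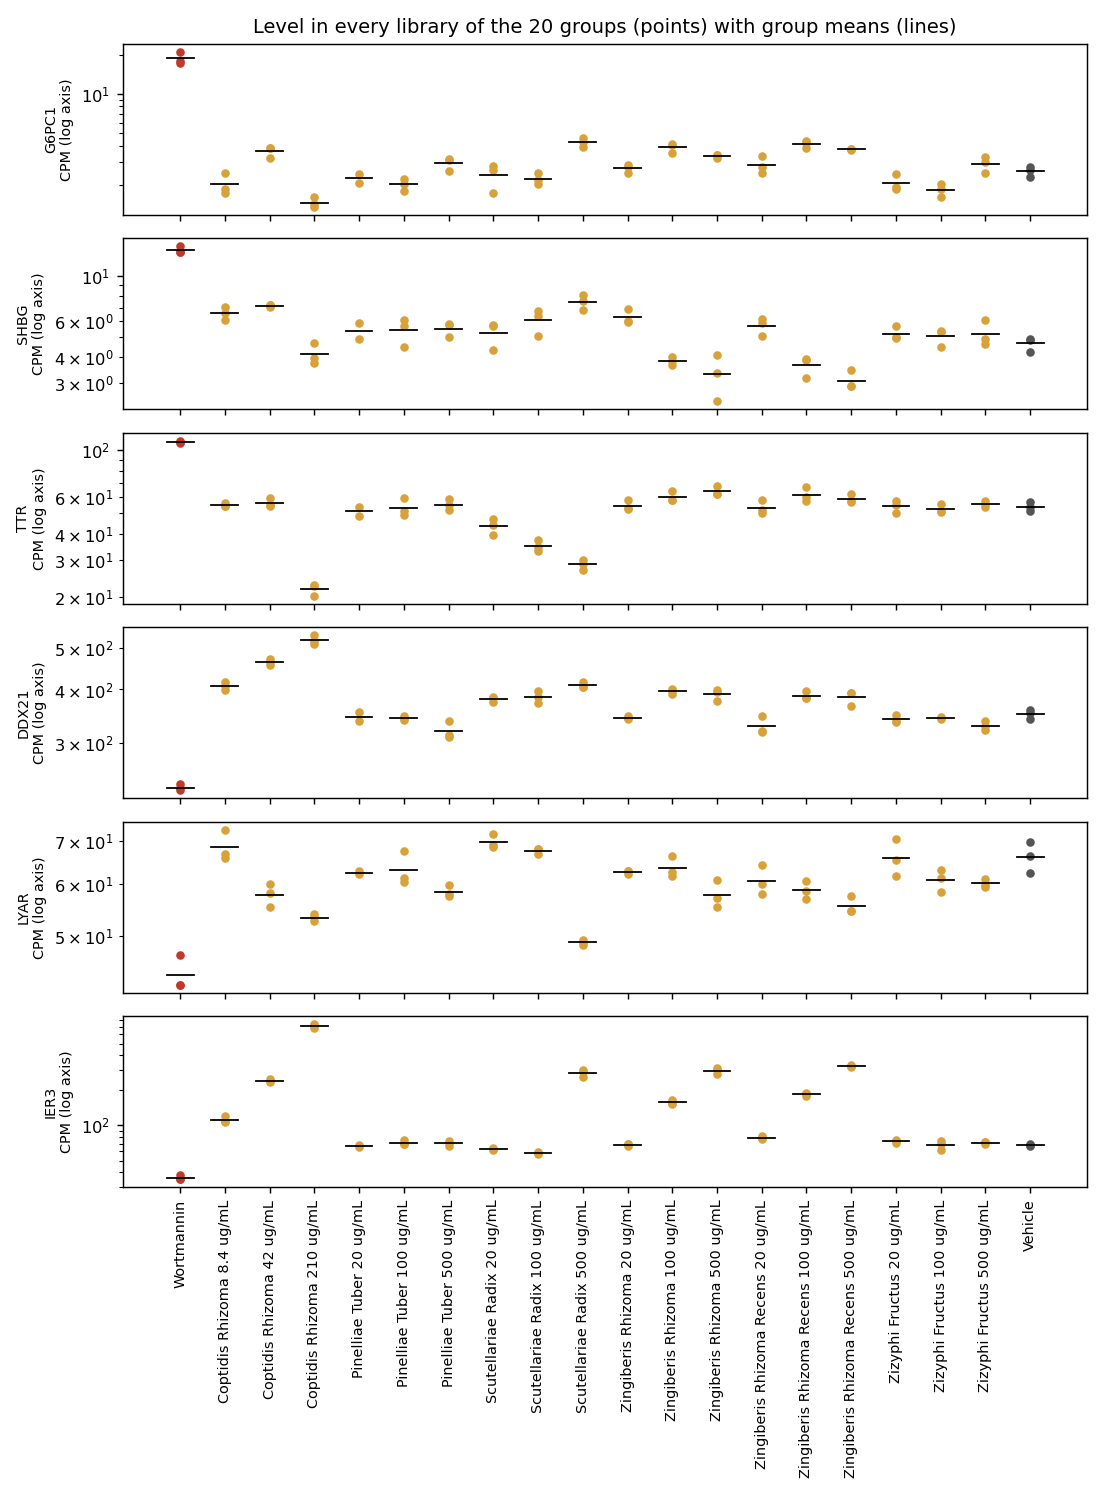
Level in CPM (vertical log axis of each panel) of G6PC1, SHBG, TTR, DDX21, LYAR and IER3 in each library of the 20 groups, with wortmannin at the left, the 18 extract groups between, from low to high dose of each extract, and vehicle at the right. The wortmannin libraries of G6PC1, SHBG and TTR stand above all extract groups, and those of DDX21, LYAR and IER3 below them. The LYAR mean of 43.6 CPM with wortmannin is close to its lowest extract mean of 48.9 CPM.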

How the data were processed

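Per the submitters' processing notes, the authors ran FastQC 0.11.9, Trim Galore 0.6.5, the aligner STAR 2.7.3a and the quantifier RSEM 1.3.3 on hg38 (GRCh38), and the deposited values are expected counts for each gene. The reads were 100-base pairs from a directional kit, per the labels' protocols. Neither the annotation nor the strand setting is given in the sources used. Values were rounded before testing, since 24.44% of those above 0 were not whole. Of its columns 208 that match no sample were not used. Symbols matched 56558 identifiers and GENCODE 29 coordinates 57055.

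Libraries were scaled by TMM and filtered with filterByExpr. All 59 libraries in 20 groups entered a single quasi-likelihood fit (edgeR 4.0.16, limma 3.58.1, R 4.3.3), with a biological coefficient of variation of 4.41%. The test was two-sided, with Benjamini-Hochberg adjustment over all genes and calls at an adjusted p under 0.05. The standard error (SE) was derived as the absolute log2 fold change divided by the square root of the test's F statistic. CPM values were computed on TMM-scaled library sizes. A gene was called apart from the 19 other groups when all contrasts had the same sign and the largest p-value, adjusted over all genes, was under 0.05. There were 15 alternatives, DESeq2 1.42.0 among them.

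The comparison and the 32 gene lists were chosen with earlier results of these data known, and no list was tested as a set. Named genes are the 20 largest changes in each direction with a group mean of at least 1 CPM and groups that do not overlap, members of the 4 PI3K and FOXO lists, up to 6 called members of each other list with the largest change, members of a role that did not pass, and the 10 highest and 10 lowest genes apart; others are said to be chosen after their values were seen. Libraries of the same number in both groups did not deviate together, so the main fit has no replicate block. Replicates differed beyond counting noise, with a mean chi-square per gene of 1.89 to 2.74 between wortmannin libraries and 2.01 to 3.2 between vehicle libraries. Values of some genes are not reported here.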

Additional observations from a re-analysis of the deposited data

How the results depend on the processing

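Among genes called both in the main fit and in an alternative, 0 had the opposite sign in any of the 15 alternative fits. Over all 5362 genes called, the signs of those that lost their call were not compared. For called list members and named genes, signs were compared in every fit that tested them, and 0 were reversed. The number called was 5394 with DESeq2's size factors in edgeR, 5021 with DESeq2, 4889 without a filter, 5317 with at least 1 CPM in 3 libraries, 6034 without the 3 extract libraries that stand apart and 6681 with the 6 libraries fitted alone. It changed by more than 1.5 times only with a test against a minimum fold change of 1.2, which called 936 genes, 650 higher and 286 lower. Leaving out 1 library at a time gave 4601 to 4788 called, 2165 to 2379 higher and 2380 to 2487 lower, with 855 to 1049 apart from every other group, 451 to 528 above and 404 to 522 below. With the replicate number as a block 4970 genes were called, 2492 higher and 2478 lower, and 992 were apart, 529 above and 463 below. With the block in the 6 libraries alone 4522 were called. Same-numbered libraries had correlations of -0.04 to 0.02 between their deviations, so the numbers give no pairing. Of the 501 called genes that are list members, largest changes or apart, 314 lost their call against the minimum fold change and 397 lost it in no other fit. At least 1 fit without 1 library ended the call of 74, the block that of 22, the block in the 6 libraries alone that of 62 and DESeq2 that of 16. Against the minimum fold change the lists had fewer calls, with 2 in place of 7 higher PI3K genes, 10 of 18 higher FOXO list genes, 3 of 16 higher sterol genes, 23 of 38 higher plasma proteins, 17 of 39 lower mitosis genes and 0 of 9 lower DNA replication genes. Among the largest changes against vehicle TRIM74 lost its call in 7 fits, PALM2AKAP2 and TGIF2-RAB5IF in 4 each, and ASB2, EREG, PHLDA1-AS1, PPP2R2C and SH3TC2 in 1, the blocked fit of 6 libraries. Medians of gene lists changed sign only for 5 lists within 0.03 of 0. With 3 libraries a group, changes of genes near 1 CPM are the least precise.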

Other observations

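Genes of iron and metal handling moved in both directions, with 5 higher and 9 lower of 21 tested (23.8% and 42.9%, against 16.2% and 16% over all genes). TFR2, the hepatocyte sensor of transferrin iron, measured 53.5, 55.1 and 57.8 CPM with wortmannin, against 33.7, 32.1 and 32.4 CPM with vehicle (log2 fold change 0.76 ± 0.0489 SE, adjusted p = 1.17e-17). SLC40A1, the iron exporter ferroportin, measured 111, 109 and 104 CPM with wortmannin, against 66.1, 65.3 and 65.8 CPM with vehicle (log2 fold change 0.72 ± 0.0421 SE, adjusted p = 4.94e-19). TMPRSS6, a protease that lowers hepcidin, rose by 0.63, and SLC39A4, a zinc importer, by 0.63. The metallothioneins MT1X and MT1M fell by log2 fold changes of -0.50 and -0.84, though these genes are near-identical copies among which reads can be split. The call was lost for MT1M (adjusted p = 0.057 to 0.121 without wortmannin replicate 1 or vehicle replicate 3). Of 11 tested iron genes 3 rose and 3 fell, and of 10 metallothionein and zinc genes 2 rose and 6 fell.

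Wnt targets had 4 higher and 6 lower of 15 tested (26.7% and 40%, against 16.2% and 16% over all genes), and 2 were higher without wortmannin replicate 1 or 3 or vehicle replicate 2. NOTUM, a secreted Wnt inhibitor, measured 339, 331 and 333 CPM with wortmannin, against 254, 241 and 259.9 CPM with vehicle (log2 fold change 0.41 ± 0.0523 SE, adjusted p = 1.26e-08), and NKD1 and TCF7 fell by -0.25 and -0.25. Genes that respond to YAP, SRF and TGF beta had 3 higher and 4 lower of 18, 16.7% and 22.2%, close to the shares over all genes. CCN2, a matrix protein, measured 261, 265 and 252 CPM with wortmannin, against 174, 174 and 171 CPM with vehicle (log2 fold change 0.58 ± 0.0521 SE, adjusted p = 7.69e-13), while THBS1, thrombospondin, measured 177, 177 and 174 CPM with wortmannin, against 259, 268 and 255 CPM with vehicle (log2 fold change -0.57 ± 0.0431 SE, adjusted p = 4.39e-15). Both are classical YAP and TGF beta targets and went opposite ways. Inflammatory and interferon genes had 4 higher and 6 lower of 24 (16.7% and 25%), with IL6R, the interleukin-6 receptor, at 0.59, IFIT1, an interferon-induced protein, at 0.56, and the cytokines CCL20 and LIF at -0.56 and -0.55. In the IGF axis 2 of 7 rose, IGFBP1 and IGFBP2, with IGFBP2 at 1.85, 1.38 and 2.19 CPM with wortmannin, against 0.848, 0.760 and 0.841 CPM with vehicle (log2 fold change 1.15 ± 0.226 SE, adjusted p = 5.4e-05).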
